A study of Mus musculus with 6 samples.

Results

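The genes described here are the metallothioneins Mt1 and Mt2, the zinc-sensing transcription factor Mtf1, the zinc transporters Slc30a1, Slc30a5, Slc39a1, Slc39a10 and Slc39a14, and the copper transporters Slc31a1 and Slc31a2. They were picked by symbol, as 10 of the 42256 genes in the deposited count table, with the difference between the genotypes already known, and all 10 passed the filter on low counts that left 12862 genes for testing. RNA came from macrophages grown from bone marrow of adult male mice on a mixed 129S1/Sv x C57BL/6 background. The KO mice were CDH11-/-, which lack cadherin-11, a cell adhesion molecule studied mainly in mesenchymal cells, and the WT mice were CDH11+/+. Marrow cells of both genotypes were cultured for 7 days with 20% L929-conditioned medium, a source of the macrophage growth factor CSF1, and received no other treatment, and 3 KO and 3 WT libraries were analysed here, where the study design counts 4 KO and 3 WT animals. The labels do not say how the Cdh11 allele was made and name no animals, so error terms measure the spread between these libraries.

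Metallothioneins are small cysteine-rich proteins that bind zinc and copper in the cytosol. Their genes are switched on by MTF1, which binds metal response elements in DNA when free zinc rises, and also by glucocorticoids and oxidative stress. In macrophages, zinc and copper are moved across the plasma membrane and into vesicles during activation and the killing of microbes. ZnT proteins (Slc30 family) carry zinc out of the cytosol and ZIP proteins (Slc39 family) carry it in.

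In KO macrophages the Mt1 and Mt2 transcripts were higher and the transcript of the copper importer Slc31a1 was lower than in WT macrophages. The transcripts of Mtf1, of the MTF1 target Slc30a1 and of the other zinc transporters among these genes differed by at most 1.22-fold between the genotypes. Values are CPM, the usual depth-corrected count, after TMM scaling, and means are given ± SD over 3 libraries. A gene is "called" where edgeR's quasi-likelihood test over all 12862 genes gave a Benjamini-Hochberg adjusted p under 0.05. Of the 10 genes, 2 were called higher in KO and 1 lower, while 35.2% of all tested genes were called, 18.5% higher and 16.8% lower. The groups did not overlap for 5 of the 10 genes and for 53.4% of all tested genes, 27.0% with KO above WT and 26.4% with KO below. Since the 10 genes were listed with this comparison in view, their fold changes are a description, no p is given for them and nothing is read from these counts. In bulk libraries fewer cells of a type and less RNA per cell cannot be told apart.

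Promoter windows of Mt1, Mt2 and Slc30a1 are shown because MTF1 acts on these genes through metal response elements. Mt1 and Mt2 differed between the genotypes while Slc30a1 hardly did, and a link of this with the windows was not tested. Each window runs from 250 bases before to 50 bases after the RefSeq start on build GRCm38.p6, plus strand, 5′ to 3′, and capitals mark matches to the core of the metal response element, TGCACNC or TGCGCNC, on either strand. The windows are chr8:94178839-94179138 for Mt1, chr8:94172368-94172667 for Mt2 and chr1:191906531-191906830 for Slc30a1.
Mt1: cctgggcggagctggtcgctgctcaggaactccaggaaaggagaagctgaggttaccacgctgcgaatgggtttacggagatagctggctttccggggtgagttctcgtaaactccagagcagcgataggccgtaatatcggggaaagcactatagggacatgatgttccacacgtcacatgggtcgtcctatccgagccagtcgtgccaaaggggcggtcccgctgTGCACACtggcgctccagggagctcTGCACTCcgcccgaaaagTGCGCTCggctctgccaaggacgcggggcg
Mt2: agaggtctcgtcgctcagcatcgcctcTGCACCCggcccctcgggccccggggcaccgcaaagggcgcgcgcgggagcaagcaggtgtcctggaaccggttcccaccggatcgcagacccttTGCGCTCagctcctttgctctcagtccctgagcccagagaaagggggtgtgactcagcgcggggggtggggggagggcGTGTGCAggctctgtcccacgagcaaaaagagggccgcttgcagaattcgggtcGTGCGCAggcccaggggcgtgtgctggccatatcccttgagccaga
Slc30a1: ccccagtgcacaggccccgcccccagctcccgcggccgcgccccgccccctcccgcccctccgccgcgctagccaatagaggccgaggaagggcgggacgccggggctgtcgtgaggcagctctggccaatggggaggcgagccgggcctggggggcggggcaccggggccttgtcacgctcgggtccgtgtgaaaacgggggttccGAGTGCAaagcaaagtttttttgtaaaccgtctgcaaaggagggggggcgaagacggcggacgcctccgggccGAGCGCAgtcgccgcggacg
The Mt2 window held 4 matches, the Mt1 window 3 and the Slc30a1 window 2, and no matches overlapped. Among 32544 mouse promoter windows of this length, 25.9% held at least 1 match, 7.17% at least 2, 1.99% at least 3 and 0.522% at least 4. The windows of Slc30a5 and Slc31a2 held 1 match each, and those of Mtf1, Slc39a1, Slc39a10 and Slc31a1 held 0. No window was at hand for Slc39a14. The Mt1 matches ran over bases -23 to -17, 3 to 9 and 21 to 27 from the RefSeq start. GENCODE also lists transcripts that start after the windows end. These starts are 122 and 152 bases past the RefSeq start for Mt1 and 242 bases for Mt2. The sequence just before those starts was not searched. The match counts are thus of these windows and may leave out elements nearer those starts. A match is a string of letters and not a measured binding site.

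Mt1 (ENSMUSG00000031765, GRCm38 chromosome 8, 94179082 to 94180327, plus strand) stood at 96.1, 117 and 101 CPM in KO 1 to KO 3, against 72.1, 59.9 and 65.7 CPM in WT 1 to WT 3. Every KO library was above every WT library. The mean was 105 ± 11.1 CPM in KO and 65.9 ± 6.13 CPM in WT, a log2 fold change of 0.67 (SE 0.10) or 1.59-fold. These values rest on 2737 to 3416 counts per library in KO and 1587 to 2693 in WT.

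Mt2 (ENSMUSG00000031762, chromosome 8, 94172664 to 94173568, plus strand), whose end lies 5.51 kb before the start of Mt1, was less abundant and differed more. It stood at 15.7, 19.7 and 13.96 CPM in KO 1 to KO 3, against 5.06, 4.45 and 6.27 CPM in WT 1 to WT 3. The lowest KO library was still above the highest WT library by more than the whole range of the WT values. The mean was 16.5 ± 2.96 CPM in KO and 5.26 ± 0.927 CPM in WT, a log2 fold change of 1.64 (SE 0.17) or 3.13-fold. KO 2 was the highest library for both metallothioneins. Both stayed called with any 1 library left out, with log2 fold changes of 0.58 to 0.74 for Mt1 and 1.49 to 1.78 for Mt2.

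The balance between Mt1 and Mt2 differed between the genotypes. Mt2 made up 14.1, 14.4 and 12.1% of the summed Mt1 and Mt2 counts in KO 1 to KO 3, against 6.56, 6.92 and 8.72% in WT 1 to WT 3. The ratio of Mt1 to Mt2 CPM was 6.43 ± 0.704 in KO and 12.7 ± 1.99 in WT, without overlap. Mt1 and Mt2 are similar in sequence, and how reads that match both were counted is not given in the sources used here. The authors' deposited normalized signal gave nearly the same differences, with a log2 ratio of the means of 0.62 for Mt1 and 1.61 for Mt2.

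The brain-type metallothionein Mt3 (chromosome 8, 94152607 to 94154146, plus strand), which was not among the 10 genes, was close to the limit of detection. It had 19, 16 and 20 counts in KO 1 to KO 3, against 3, 7 and 1 counts in WT 1 to WT 3, or 0.627 ± 0.0673 CPM in KO and 0.126 ± 0.122 CPM in WT. It rose in KO by a log2 fold change of 2.35 (SE 0.54; Benjamini-Hochberg adjusted p = 0.0164 by the quasi-likelihood test of edgeR). The call was lost without KO 3 (log2 fold change 2.30) or WT 1 (2.07). Mt4, the metallothionein of stratified epithelium, had no count in any library, where 3 counts correspond to 0.0804 to 0.113 CPM. The 3 detected metallothioneins together reached 122 ± 13.7 CPM in KO and 71.3 ± 6.37 CPM in WT, almost all of it Mt1 and Mt2.

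**Figure D1:**
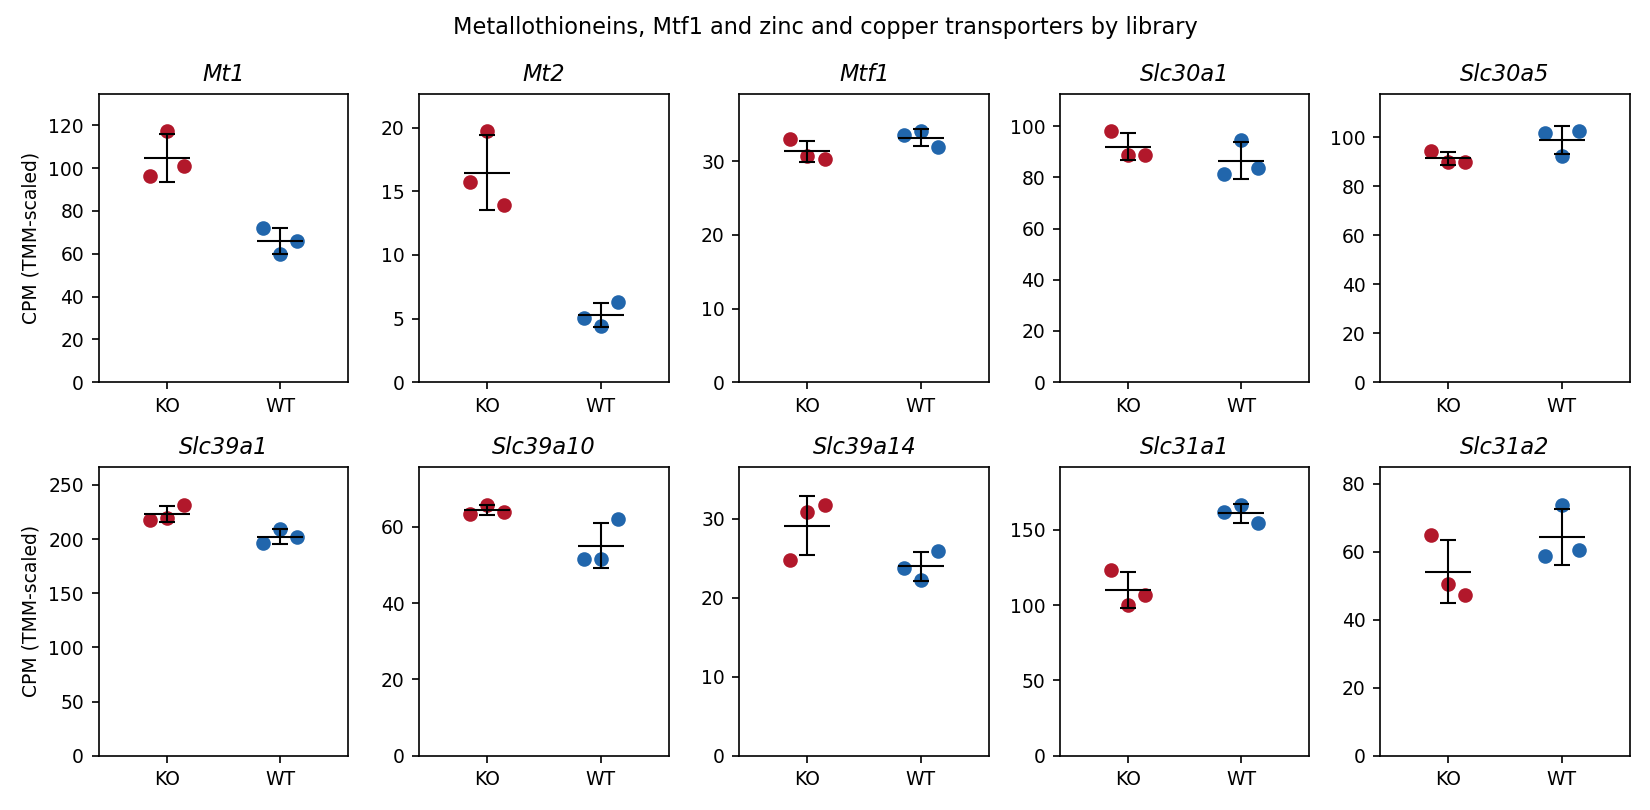
CPM of the 10 genes in each library (points), with KO on the left and WT on the right of each panel, the mean as a line and the SD as bars, on axes that start at 0. Mt1 and Mt2 lie higher in all KO libraries, Slc31a1 lies lower in all KO libraries, and Mtf1 and Slc30a1 overlap between the genotypes.

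Mtf1 itself (chromosome 4, 124802104 to 124849800, plus strand) had 32.96, 30.7 and 30.3 CPM in KO 1 to KO 3, against 33.6, 34.1 and 31.9 CPM in WT 1 to WT 3. The genotypes overlapped, and the log2 fold change was -0.08 (SE 0.06). Slc30a1 encodes ZnT1, the exporter of zinc at the plasma membrane and a known MTF1 target in mouse (chromosome 1, 191906767 to 191913247, plus strand). It had 98.01, 88.9 and 88.8 CPM in KO 1 to KO 3, against 81.1, 94.6 and 83.7 CPM in WT 1 to WT 3. The ranges overlapped and the log2 fold change was 0.09 (SE 0.08). Slc30a5, which loads zinc into the secretory pathway (chromosome 13, 100802648 to 100833427, minus strand), averaged 91.3 ± 2.61 CPM in KO and 98.8 ± 5.64 CPM in WT, also with overlap. Its log2 fold change was -0.11 (SE 0.06).

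None of the importers Slc39a1, Slc39a10 and Slc39a14 was called. Slc39a1, or ZIP1, a zinc importer of the plasma membrane (chromosome 3, 90248172 to 90253612, plus strand), had 218, 219.7 and 232 CPM in KO 1 to KO 3, against 195.9, 209 and 202 CPM in WT 1 to WT 3. Slc39a10, or ZIP10, whose gene MTF1 represses in mouse (chromosome 1, 46807544 to 46892852, minus strand), had 63.3, 65.8 and 63.8 CPM in KO 1 to KO 3, against 51.5, 51.7 and 61.96 CPM in WT 1 to WT 3. For both genes all KO libraries were above all WT libraries, though for Slc39a10 WT 3 lay close to the KO libraries and apart from WT 1 and WT 2. The log2 fold changes were 0.14 (SE 0.06) and 0.22 (SE 0.08). Slc39a10 was called without WT 3 (log2 fold change 0.32), where 28.0% of all genes were called. Both genes were called under upper-quartile scaling (0.20 for Slc39a1 and 0.28 for Slc39a10), which called 35.4% of all genes. That scaling also moved the median log2 fold change of all tested genes from 0.00 to 0.06.

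Slc39a14, or ZIP14, which carries zinc, manganese and iron into cells (chromosome 14, 70303469 to 70351425, minus strand), had 24.8, 30.8 and 31.8 CPM in KO 1 to KO 3, against 23.8, 22.2 and 25.9 CPM in WT 1 to WT 3. KO 1 lay inside the WT range and the other KO libraries above it. The log2 fold change was 0.28 (SE 0.11), or 0.38 without KO 1. There the gene was called, as were 41.7% of all genes tested.

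Slc31a1 encodes CTR1, the high-affinity copper importer (ENSMUSG00000066150, chromosome 4, 62360727 to 62391769, plus strand). It stood at 124, 99.8 and 107 CPM in KO 1 to KO 3, against 162, 167 and 155 CPM in WT 1 to WT 3. All KO libraries were below all WT libraries. The mean was 110.03 ± 12.3 CPM in KO and 161 ± 6.13 CPM in WT, and the log2 fold change of -0.55 (SE 0.09) ran from -0.64 to -0.48 with any 1 library left out, called each time. Mt1, Mt2 and Slc31a1 were also called by DESeq2, limma-voom, library totals without TMM, no filter, a minimum mean of 1 CPM and limma on the deposited signal, which called 36.5, 36.1, 33.9, 18.6, 38.3 and 29.0% of all genes. The gene Cdc26 overlaps it on the other strand and was not called, with 32.9 CPM in KO and 30.4 CPM in WT. Slc31a2 encodes CTR2, a related protein of endosomes and lysosomes that affects the processing of CTR1, and lies near Slc31a1 (chromosome 4, 62262562 to 62298411, plus strand). It had 64.8, 50.5 and 47.3 CPM in KO 1 to KO 3, against 58.7, 73.9 and 60.6 CPM in WT 1 to WT 3. KO 1 overlapped the WT libraries, and the log2 fold change was -0.25 (SE 0.14). Without KO 1 it was -0.40 and the gene was called, as were 41.7% of all genes tested there.

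Levels of different genes were compared per kb of GENCODE's principal transcript. In KO, Mt1 was the highest of the 10 at 191 ± 20.2 CPM per kb, followed by Slc39a1 at 94.4 ± 3.19, Mt2 at 32.2 ± 5.80, Slc31a2 at 29.8 ± 5.13, Slc31a1 at 29.6 ± 3.30 and Slc30a5 at 28.7 ± 0.822 CPM per kb. From Mt2 to Slc30a5 each neighbour in this order overlapped the next. In WT, Mt1 was also the highest at 120.1 ± 11.2 CPM per kb, followed by Slc39a1 at 85.6 ± 2.83, Slc31a1 at 43.3 ± 1.65, Slc31a2 at 35.4 ± 4.54, Slc30a5 at 31.1 ± 1.77, Slc30a1 at 16.5 ± 1.37 and Mt2 at 10.3 ± 1.81 CPM per kb. There the Mt2 libraries overlapped those of Slc39a10 at 10.01 ± 1.09 CPM per kb, and no other neighbours in the WT order overlapped. Slc39a14 and Mtf1 were the lowest in both genotypes, with 5.91 ± 0.769 and 4.11 ± 0.187 CPM per kb in KO and 4.86 ± 0.374 and 4.35 ± 0.150 CPM per kb in WT. The principal transcripts of Mt1 and Mt2 are only 549 and 511 bases long, so their values per kb depend strongly on the transcript chosen.

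Beyond these 10 genes, 39 further genes of zinc and copper handling were followed, of which 29 were tested. Of these 9 rose in KO and 1 fell, a share of 34.5% called beside 35.2% over all tested genes. Rises made up 31.0% of the 29 genes beside 18.5% of all tested genes. The lists of these genes, and those below, were chosen with earlier results of these data known. Nothing is therefore read from their shares, and adjusted p values of their genes come from the fit over all genes. Their median log2 fold change was 0.08, and 0.00 over all tested genes. The number called was 3 without KO 3, 4 without WT 1, 6 without WT 2, 8 without KO 2, 11 without WT 3 and 15 without KO 1. In the same order 18.2, 15.1, 19.0, 20.8, 28.0 and 41.7% of all genes were called. Mt4, Slc30a2, Slc30a8 and Slc39a5 had no count in any library.

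Among 5 tested zinc exporters 2 rose, or 40.0% called, near the 35.2% of all tested genes. Slc30a4, or ZnT4, a vesicular exporter, had 14.8, 21.3 and 15.8 CPM in KO 1 to KO 3, against 11.8, 10.1 and 13.1 CPM in WT 1 to WT 3 (log2 fold change 0.57, SE 0.16; edgeR, Benjamini-Hochberg adjusted p = 0.0336). Its call was lost without KO 2, KO 3, WT 1 or WT 2, where the log2 fold change was 0.39 to 0.62. Tmem163, a zinc efflux protein of vesicles and the plasma membrane, rose at a very low level, with 22, 25 and 36 counts in KO 1 to KO 3, against 5, 1 and 11 counts in WT 1 to WT 3 (edgeR's adjusted p = 0.0178). Its log2 fold change was 2.34, and the call was lost without KO 3 or WT 1 (2.12 in each). The genotypes did not overlap for 3 of the 5 exporters, beside 53.4% of all tested genes. Slc30a7, a Golgi exporter, had 50.3, 38.4 and 42.9 CPM in KO 1 to KO 3, against 50.5, 52.9 and 51.3 CPM in WT 1 to WT 3, and was not called. KO 1 differed from the WT libraries by little.

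Among 9 further tested importers 2 rose and 1 fell, or 33.3% called, near the 35.2% of all tested genes. Slc39a6, or ZIP6, the close relative of ZIP10, had 85.2, 110.3 and 92.7 CPM in KO 1 to KO 3, against 69.2, 63.1 and 77.95 CPM in WT 1 to WT 3. It rose by a log2 fold change of 0.45 (SE 0.12; edgeR, Benjamini-Hochberg adjusted p = 0.0231), a call lost without KO 3, WT 1 or WT 2 (0.38 to 0.47). Slc39a11, or ZIP11, averaged 50.9 ± 5.73 CPM in KO and 38.9 ± 2.95 CPM in WT and rose by 0.39 (edgeR's adjusted p = 0.0205), a call lost without KO 2, KO 3, WT 1 or WT 2 (0.32 to 0.38). Slc39a8, or ZIP8, an importer of zinc and manganese, had 11.5, 12.3 and 12.2 CPM in KO 1 to KO 3, against 16.8, 14.3 and 15.2 CPM in WT 1 to WT 3. It fell by 0.36 on the log2 scale (SE 0.09; edgeR's adjusted p = 0.0173), a call lost without KO 3 (-0.38) or WT 1 (-0.30). The genotypes did not overlap for 4 of the 9 importers, these called ones among them, beside 53.4% of all tested genes. Slc39a7, which releases zinc from the endoplasmic reticulum, was the importer of this list with the most counts and was not called, at 144, 153 and 162 CPM in KO 1 to KO 3, against 146, 162 and 139 CPM in WT 1 to WT 3.

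Of 14 tested genes of copper handling 4 rose and 0 fell, or 28.6% called, beside 35.2% of all tested genes. The list took in Slc11a1 and Slc11a2, metal transporters that are not particular to copper, and neither was called. Over all tested genes 18.5% were higher. Cox17, the copper chaperone of cytochrome oxidase, had 54.9, 63.5 and 56.1 CPM in KO 1 to KO 3, against 42.7, 37.9 and 39.3 CPM in WT 1 to WT 3 (log2 fold change 0.54, SE 0.08; edgeR, Benjamini-Hochberg adjusted p = 0.00572). Commd1, which takes part in copper export, averaged 38.5 ± 3.70 CPM in KO and 27.8 ± 1.34 CPM in WT (log2 fold change 0.47; edgeR's adjusted p = 0.00803). Sod1, the copper- and zinc-containing superoxide dismutase, averaged 147 ± 15.7 CPM in KO and 109 ± 3.99 CPM in WT (log2 fold change 0.42; edgeR's adjusted p = 0.0107). These 3 genes were called with any 1 library left out. Atox1, the chaperone that brings copper to the export pumps, averaged 83.2 ± 2.68 CPM in KO and 69.2 ± 3.16 CPM in WT (log2 fold change 0.26; edgeR's adjusted p = 0.0138), a call lost without KO 3 (0.23) or WT 2 (0.25). The copper-exporting pump Atp7a, at 60.1, 53.6 and 56.1 CPM in KO 1 to KO 3 against 61.5, 60.3 and 61.99 CPM in WT 1 to WT 3, was not called. Steap3, a metalloreductase, had 40.7, 77.2 and 59.6 CPM in KO 1 to KO 3, against 31.3, 31.02 and 42.8 CPM in WT 1 to WT 3. Its groups overlapped and it was not called, although its log2 fold change of 0.76 (SE 0.25) was above that of Mt1. Ccs, which loads copper into SOD1, was not called either, with means of 22.3 CPM in KO and 21.6 CPM in WT.

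**Figure D2:**
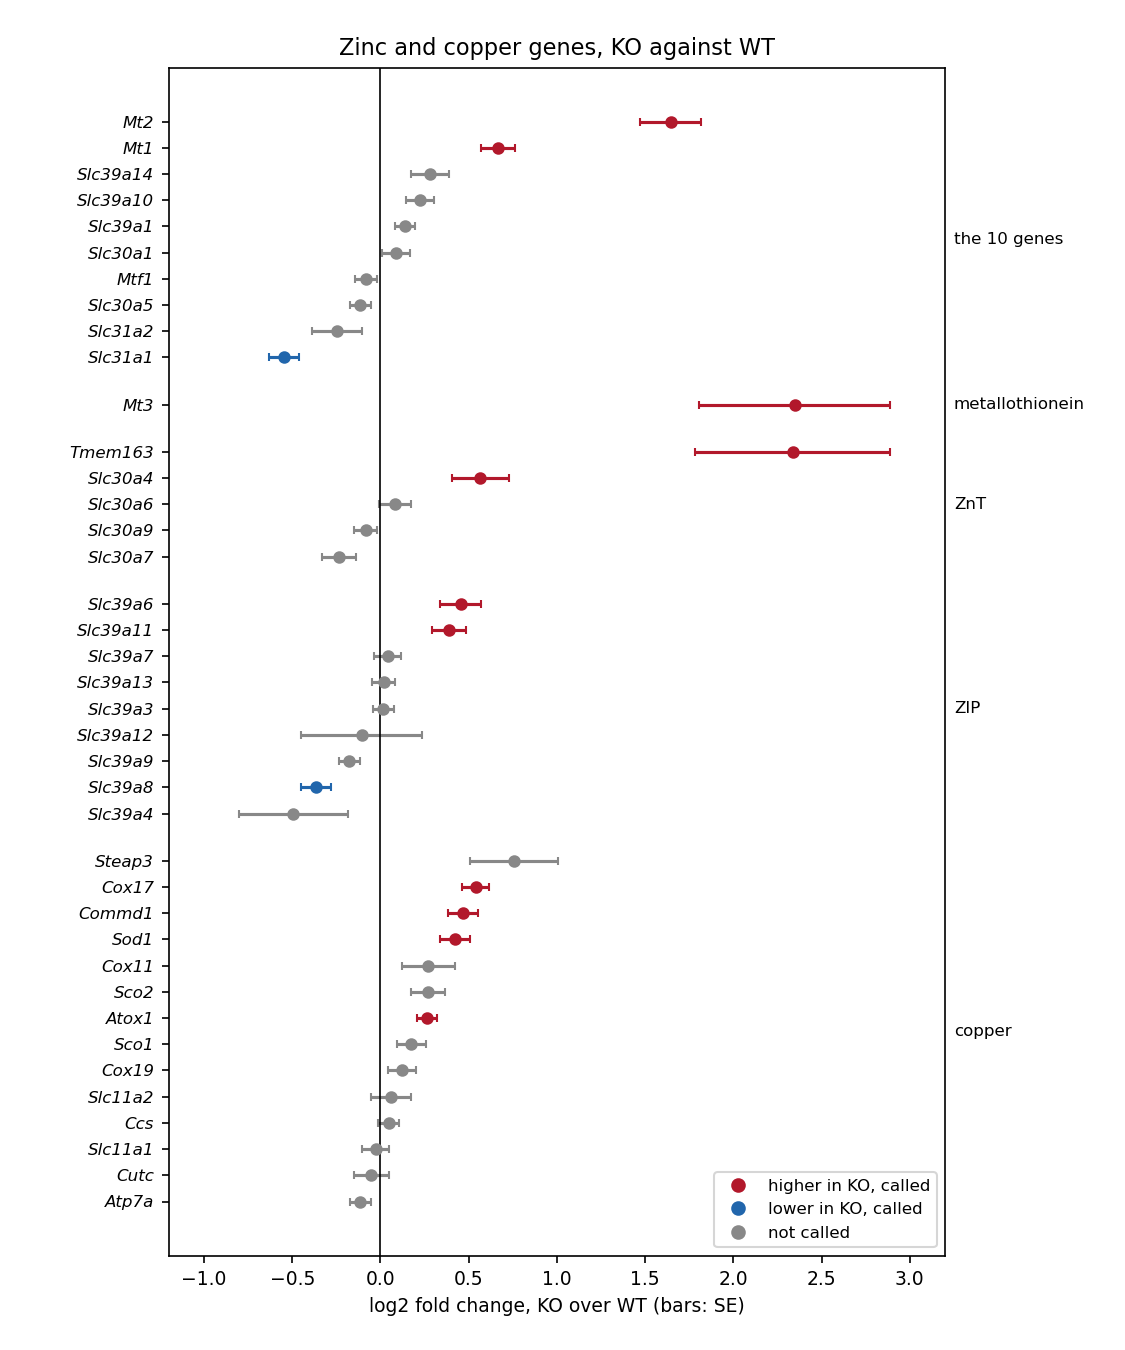
Log2 fold change of KO over WT for the 10 genes and the 29 further tested zinc and copper genes (points; bars are SE), in blocks by family, red where called higher, blue where called lower and grey where not called. Mt3, Tmem163 and Mt2 lie furthest to the right, at 2.35, 2.34 and 1.64.

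Of 4 other genes known from mouse to respond to MTF1 1 rose and 1 fell, while 35.2% of all tested genes were called. Selenoh, a selenoprotein, had 17.4, 22.1 and 16.1 CPM in KO 1 to KO 3, against 11.7, 10.1 and 13.4 CPM in WT 1 to WT 3, and rose by a log2 fold change of 0.66 (SE 0.15; edgeR, Benjamini-Hochberg adjusted p = 0.0158), a call lost without WT 1 (0.65). Ndrg1, a stress-induced gene, averaged 42.8 ± 1.25 CPM in KO and 61.2 ± 7.97 CPM in WT and fell by 0.52 (edgeR's adjusted p = 0.00905). Csrp1 and Gclc, the other 2 of the 4 genes, had log2 fold changes of -0.01 and 0.00 and were not called.

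Of 7 glucocorticoid-induced genes 2 rose and 1 fell, or 42.9% called, near the 35.2% of all tested genes. Tsc22d3, or GILZ, a standard glucocorticoid target, had 33.9, 28.5 and 32.2 CPM in KO 1 to KO 3, against 57.4, 58.3 and 54.6 CPM in WT 1 to WT 3. It fell by 0.85 on the log2 scale (SE 0.08; edgeR, Benjamini-Hochberg adjusted p = 0.00398). Dusp1, a phosphatase that is also an early response gene, averaged 87.6 ± 9.92 CPM in KO and 47.9 ± 4.77 CPM in WT (log2 fold change 0.87; edgeR's adjusted p = 0.00496). Fkbp5, a co-chaperone of the glucocorticoid receptor, averaged 25.6 ± 2.38 CPM in KO and 21.6 ± 0.289 CPM in WT (log2 fold change 0.24; edgeR's adjusted p = 0.0489), a call lost without KO 2, KO 3, WT 1, WT 2 or WT 3 (0.16 to 0.28).

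Of 8 genes of oxidative and heat stress 6 rose and 0 fell, or 75.0% called beside 35.2% of all tested genes, of which 18.5% were higher. This list was chosen with earlier results of these data known, and Hspa1a and Hspa1b count as 2 of the 6. The median log2 fold change was 0.88 over the 8 genes and 0.00 over all tested genes. Hmox1, haem oxygenase 1, had 825, 1163 and 907 CPM in KO 1 to KO 3, against 537, 527 and 510.3 CPM in WT 1 to WT 3. It rose by a log2 fold change of 0.88 (SE 0.12; edgeR, Benjamini-Hochberg adjusted p = 0.00572). KO 2 was its highest library, and a link of this order with Mt1 and Mt2 was not tested. Srxn1, sulfiredoxin, averaged 132 ± 22.9 CPM in KO and 71.7 ± 4.87 CPM in WT (log2 fold change 0.89; edgeR's adjusted p = 0.00629). Txnrd1, thioredoxin reductase, averaged 364 ± 27.1 CPM in KO and 261 ± 14.3 CPM in WT (log2 fold change 0.48; edgeR's adjusted p = 0.00665). The heat shock genes Hspa1a and Hspa1b, near-identical copies between which counts are uncertain, rose by log2 fold changes of 1.13 each, that of Hspa1b losing its call without KO 3 (1.03). Slc7a11, the cystine importer, rose by 0.95, a call lost without KO 2, KO 3, WT 1 or WT 3 (0.80 to 0.93). Gclm and Nqo1 were not called, and Gclm averaged 104 CPM in KO and 116 CPM in WT.

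**Figure D3:**
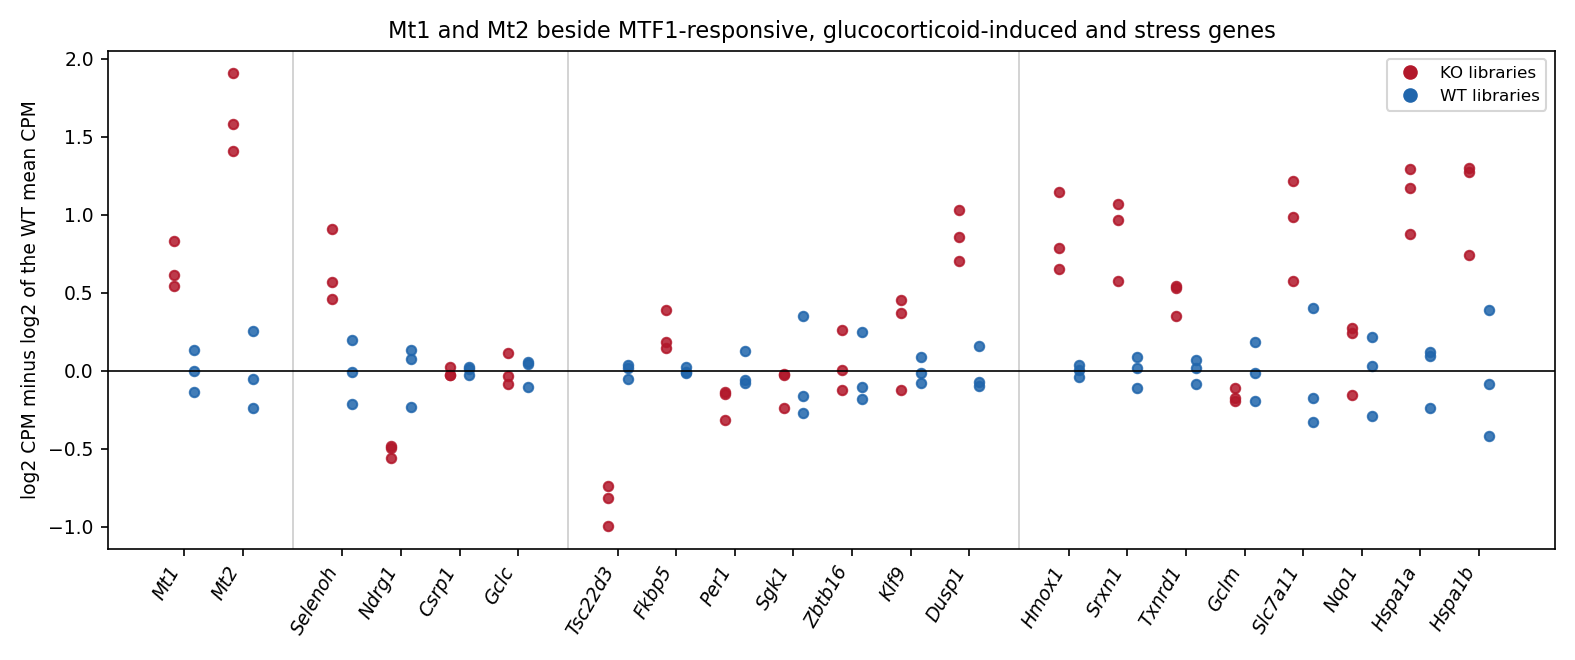
Log2 CPM of each library minus log2 of the WT mean CPM, for Mt1, Mt2 and the MTF1-responsive, glucocorticoid-induced and stress genes, with KO libraries in red left of WT libraries in blue. Mt1, Mt2, Selenoh, Fkbp5, Dusp1 and 6 of the 8 stress genes lie above WT in all KO libraries, and Tsc22d3, Ndrg1 and the uncalled Per1 lie below.

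Mt1, Mt2 and Mt3 lie on the chromosome of the targeted gene, 8.45 to 8.48 Mb before Cdh11 (chromosome 8, 102632095 to 102785642, minus strand). Cdh11 had 6, 4 and 5 counts in KO 1 to KO 3, against 6, 11 and 6 counts in WT 1 to WT 3. At this depth a difference was not detectable (log2 fold change -0.55, SE 0.51; edgeR, Benjamini-Hochberg adjusted p = 0.423), so the transcript does not check the genotype labels. Within 200 kb of Mt1, 6 other genes were tested and 3 were called, while 35.2% of all tested genes were. Nup93, a nuclear pore protein 34.2 kb after Mt1, had 40.2, 50.5 and 43.7 CPM in KO 1 to KO 3, against 26.5, 29.2 and 32.7 CPM in WT 1 to WT 3. It rose by a log2 fold change of 0.61 (SE 0.11; edgeR's adjusted p = 0.00826), close in size to that of Mt1. Bbs2, a protein of primary cilia on the other side, fell by 0.41 (SE 0.14; edgeR's adjusted p = 0.0493), a call lost without KO 2, KO 3, WT 1, WT 2 or WT 3 (-0.49 to -0.33 over all 6 omissions) and made by 2 of 7 other alternatives. Without KO 3 or WT 1 the count of called neighbours was 1. Mt3 was the third called neighbour, and Nudt21 and Ogfod1 had log2 fold changes of -0.04 and 0.08 and were not called.

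Within 10 Mb of Cdh11 on either side, Mt1 and Mt2 included, 150 genes were tested, and 36 rose and 22 fell. That is 38.7% called beside 35.2% of all tested genes, and 24.0% higher beside 18.5%. Within 1 Mb of Mt1, 11 of 26 other tested genes were called, 7 of them higher. Of the genes within 10 Mb, 25 were called without WT 1, 26 without KO 3, 28 without WT 2 and 33 without KO 2. Nearness to the targeted gene and its loss cannot be told apart for Mt1 and Mt2 in this design.

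**Figure D4:**
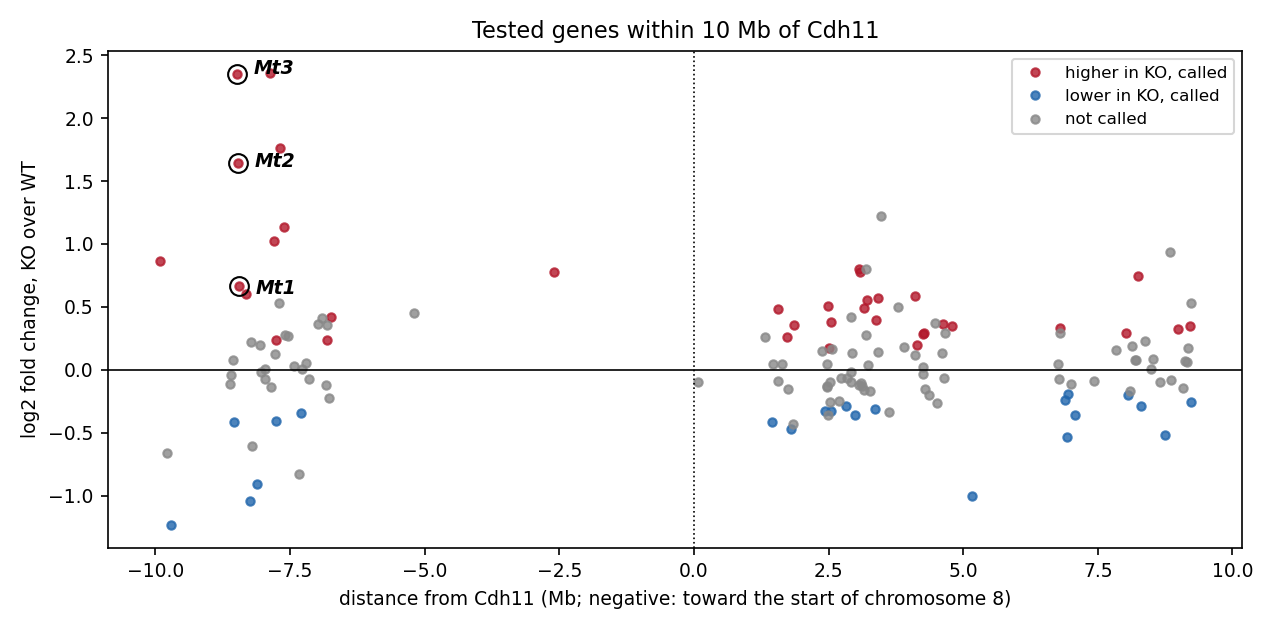
Log2 fold change of KO over WT for the 150 tested genes within 10 Mb of Cdh11, by distance from Cdh11 in Mb, with called genes in red (higher) and blue (lower) and Mt1, Mt2 and Mt3 circled. The metallothioneins lie 8.45 to 8.48 Mb before Cdh11, among genes called in both directions.

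Genes with the most similar profiles were found by the root mean square difference between log2 CPM values centred on their mean over the 6 libraries. For Mt1 these were Nudcd1, Trim66, Eef1g, Wrb and Hpf1, at 0.040 to 0.048, and for Mt2 they were Samd14, Psat1, Asns, Rnft2 and Ocstamp, at 0.069 to 0.126. For Slc30a1 they were Zfp346, Fam241a, Tmem205, Hspbap1 and Gpd2, at 0.020 to 0.037, and for Slc39a10 they were Elovl5, Rps6ka3, Thg1l, Spag9 and Gm12454, at 0.028 to 0.039. Mt1 and Mt2 themselves differed by 0.51 on this measure, since their fold changes differed.

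Library totals ran from 28193880 to 30122204 counts in KO and from 27170943 to 37113689 in WT. All 7 macrophage markers were detected, and their summed level was 19119.5 to 24870.3 CPM in KO and 30497.5 to 33162.5 CPM in WT, most of it Lyz2. Csf1r, the CSF1 receptor, was called lower in KO (log2 fold change -0.70) with any 1 library left out. Lyz2 was also called lower (-0.57), a call lost without WT 1 or WT 2 (-0.68 to -0.45 over all 6 omissions). Cd68 was called higher (0.32), a call lost without KO 2, KO 3, WT 1 or WT 2 (0.27 to 0.39 over all 6). Adgre1, Mertk, Fcgr1 and Itgam were not called, with log2 fold changes of -0.20, -0.54, -0.11 and -0.14. Of the 7 markers 42.9% were called, beside 35.2% of all tested genes. The sum over 8 neutrophil markers was 31.3 to 85.1 CPM in KO and 25.0 to 65.1 CPM in WT, with 0 of 7 tested called. Log2 fold changes of these 7 ran from 0.51 (Ltf) to 0.83 (Mpo), with a median of 0.70. The groups did not overlap for 1 of the 7, beside 53.4% of all tested genes. The 4 markers of megakaryocytes or platelets summed to 177 to 281 CPM in KO and 167 to 243 CPM in WT, most of it Pf4, which was not called (217 ± 51.8 CPM in KO and 208 ± 38.8 CPM in WT). The other 2 tested were higher in KO. Itga2b, an integrin of megakaryocytes and platelets that mast cells and progenitors also carry, had 4.28, 6.83 and 4.52 CPM in KO 1 to KO 3, against 0.750, 1.09 and 0.586 CPM in WT 1 to WT 3, a log2 fold change of 2.69 (SE 0.29) or 6.46-fold, called with any 1 library left out. Ppbp, a platelet chemokine, averaged 5.53 ± 1.41 CPM in KO and 2.74 ± 0.608 CPM in WT (log2 fold change 1.01), a call lost without KO 2 or WT 1 (0.81 to 1.17 over all 6 omissions). KO 2 was the highest library for Itga2b and Ppbp and KO 1 for Pf4, and a link of these orders with Mt1 and Mt2 was not tested. All 6 markers of fibroblasts, 4 of T or NK cells, 4 of dendritic cells, 3 of mast cells or basophils and 4 of erythroid cells stayed under 1 CPM in every library, with Dcn and Lum at 0. Of 4 B cell markers Cd79b reached 6.11 CPM. The summed CPM of these lists in KO and in WT ran over 0.211 to 0.365 and 0.113 to 0.276 for fibroblasts, 3.22 to 6.11 and 4.30 to 5.34 for B cells, 0.498 to 0.948 and 0.482 to 0.906 for T or NK cells, and 1.02 to 1.69 and 0.868 to 1.29 for dendritic cells. For mast cells or basophils they ran over 0.351 to 0.498 in KO and 0.00 to 0.107 in WT, and for erythroid cells over 0.0665 to 0.103 in KO and 0.0345 to 0.107 in WT. The part of these markers in the metal genes was not tested.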

How the data were processed

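Directional RNA libraries of cultured macrophages were compared by genotype, 3 KO and 3 WT, per the labels. DRAGEN and DESeq2 are named with build mm10 per the submitters' processing notes, which give no version and no role for either. Which annotation, counter and strand setting the authors chose is not given in the sources used here; reads of overlapping, antisense and near-identical genes may therefore be mixed. Raw counts were deposited as whole numbers for 42256 Ensembl genes. The deposited normalized signal equals those counts divided by factors that, for 56.9 to 72.0% of genes by library, differ by over 1% from the library's median factor. Symbols, positions and transcript lengths come from GENCODE M21 on GRCm38, the assembly also called mm10, and promoters from RefSeq, found for 10 of 11 genes looked up.

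Counts were filtered with filterByExpr (minimum count 10), scaled by TMM and tested with edgeR 4.0.16 (robust quasi-likelihood F test, two-sided, Benjamini-Hochberg adjustment) in R 4.3.3, after a test on simulated data. Standard errors were derived from the fold change and F. Cdh11 failed the filter and was added for its own test. Libraries of one genotype differed beyond counting error (chi-square per degree of freedom 12.6 to 52.6). Replicate numbers follow sample order. Profile likeness used log2 of CPM plus 0.1. The genes and lists were chosen with earlier results of these data known. Besides the 10 genes, named genes are Cdh11, called genes of the lists, tested genes within 200 kb of Mt1 and the 5 most similar profiles of 4 genes; further genes were chosen after their values were seen, and a few genes under these rules are not reported here. The test was repeated with DESeq2 1.42.0 and limma-voom (limma 3.58.1), upper-quartile or no scaling factors, weaker and stricter filters, leaving out each library in turn, and limma on log2(signal + 1) with the authors' deposited values.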

Additional observations from a re-analysis of the deposited data

How the results depend on the processing

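Mt1, Mt2 and Slc31a1 were called in the same direction by DESeq2, limma-voom, the other scalings and filters and limma on the deposited signal, and with any 1 library left out. No direction of the 31 fold changes followed was turned under an alternative that gave a value. Those outside the 10 genes were followed because the main fit called them, and the alternatives share its libraries. Little is therefore read from their steady direction. The number of called genes was 4532 and ran from 1979 to 5456 with 1 library left out, that of the 29 tested zinc and copper genes from 3 to 15 beside 10, that of the neighbours of Mt1 from 1 to 3 beside 3, and that of the region around Cdh11 from 25 to 72 beside 58. Windows of 1 Mb around Mt1 and 5 Mb around Cdh11 gave 11 and 26 called genes. The omissions of WT 1 (1979), KO 3 (2379), WT 2 (2487) and KO 2 (2719) lowered the count of called genes most. Fits on 5 libraries also carry less information than those on 6, although the count rose to 5456 without KO 1. Under upper-quartile scaling 64.4% of calls were higher in KO beside 52.4%, with 2933 higher and 1621 lower beside 2375 and 2157. There 5 of the 10 genes were called beside 3, and the median log2 fold change of all tested genes was 0.06 beside 0.00. Apart from leaving out libraries, calls were lost for Fkbp5 (DESeq2, limma-voom, no filter and limma on the signal) and for Tmem163 and Slc39a11 (limma on the signal). Bbs2 was called by 2 of 7 such alternatives. Mt3 and Tmem163 rest on 1 to 36 counts per library. No paired analysis was possible because the labels give the libraries no shared numbers.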
